A study of Arabidopsis thaliana with 24 samples.

Results

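LBD16 (AT2G42430, chromosome 2) and LBD29 (AT3G58190, chromosome 3) are a pair of plant transcription factors that are induced by auxin in roots, and their transcripts were followed here in Arabidopsis leaves sprayed with a synthetic auxin. Both were chosen by locus for their known part in lateral root and callus formation, each was read by 1 probe set, and together they are 2 of the 22746 probe sets tested. In these leaves neither transcript passed the test at 1 h, and both were about 2-fold above the 0 h level at 72 h in either genotype (1.93-fold for LBD16 and 2.12-fold for LBD29 in WT).

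LBD proteins carry a LOB domain, a DNA-binding domain found only in plants. In roots, auxin releases the activators ARF7 and ARF19 from Aux/IAA repressors, and these activators switch on LBD16 and LBD29, which help pericycle founder cells to divide and form a lateral root. The same genes are switched on when auxin-rich medium turns cut tissue, leaf explants included, into callus, a mass of dividing cells with root primordium character.

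Leaves of acx1-2 (ACX), a T-DNA insertion line of the peroxisomal acyl-CoA oxidase gene ACX1, and of wild-type Col-0 plants (WT) were measured on 24 ATH1 arrays, on which several short probes per transcript form a probe set. Plants were sprayed with 23 mM 2,4-D, a synthetic auxin used as a herbicide, in 1% dimethyl sulfoxide and 1% ethanol, and leaves were taken 1 h and 72 h later, with 3 arrays for each genotype and time. The 0 h group held 6 arrays for each genotype, and each array was an independent pool of leaves from at least 5 plants. The labels state that control plants received the solvents alone and title the control arrays as time 0, without saying when each control was sampled. A difference of treated from 0 h arrays was therefore not separated here from time after spraying, time of day or leaf age. ACX is a single insertion line in the labels, so its differences from WT concern that line.

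All values below are log2 expression, so a difference of 1 is a doubling, and levels of different probe sets are not comparable. Arrays of a group correlated at 0.974 to 0.997. The lowest values were in the 0 h groups, 0.974 in ACX and 0.975 in WT, against 0.981 or more in the treated groups. The labelled tissue is described here by marker levels, which are no test of it because probe sets differ in brightness. The mean log2 level of 8 photosynthesis genes, which include light-harvesting proteins and photosystem subunits, lay at 13.31 to 13.39 in ACX 0 h and 13.33 to 13.36 in WT 0 h arrays. The mean of 3 genes known for root expression (EXPA7, EXPA18 and PYK10) lay at 5.63 to 6.31 in ACX 0 h and 5.21 to 5.82 in WT 0 h arrays. None of the 6 mesophyll markers, the 5 vascular markers or the 13 auxin receptors, ARFs and upstream Aux/IAAs listed for this work was named by the probe annotation, so they were not analysed here.

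LBD16 was low in leaves at 0 h and 1 h and higher at 72 h. In ACX leaves its lowest, median and highest log2 values were 4.32, 4.51 and 4.59 at 0 h, and the 3 arrays read 4.58, 4.61 and 4.46 at 1 h and 5.51, 6.16 and 5.47 at 72 h. In WT leaves the lowest, median and highest values were 4.20, 4.38 and 4.56 at 0 h, and the 3 arrays read 4.60, 4.38 and 4.54 at 1 h and 5.29, 5.36 and 5.37 at 72 h. The 1 h arrays overlapped the 0 h arrays in both genotypes, and every 72 h array stood above every 0 h and 1 h array of either genotype. ACX replicate 2 was the highest of the 72 h arrays by more than the whole spread of the others.

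LBD29 showed the same late timing. In ACX leaves its lowest, median and highest values were 4.15, 4.27 and 4.33 at 0 h, and the 3 arrays read 4.28, 4.22 and 4.19 at 1 h and 5.44, 5.18 and 5.60 at 72 h. In WT leaves these values were 4.22, 4.30 and 4.49 at 0 h, and the 3 arrays read 4.27, 4.21 and 4.19 at 1 h and 5.50, 5.07 and 5.62 at 72 h. Again the 1 h arrays overlapped the 0 h arrays and the 72 h arrays lay above all others, and in both genotypes replicate 2 was the lowest 72 h array for LBD29.

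**Figure D1:**
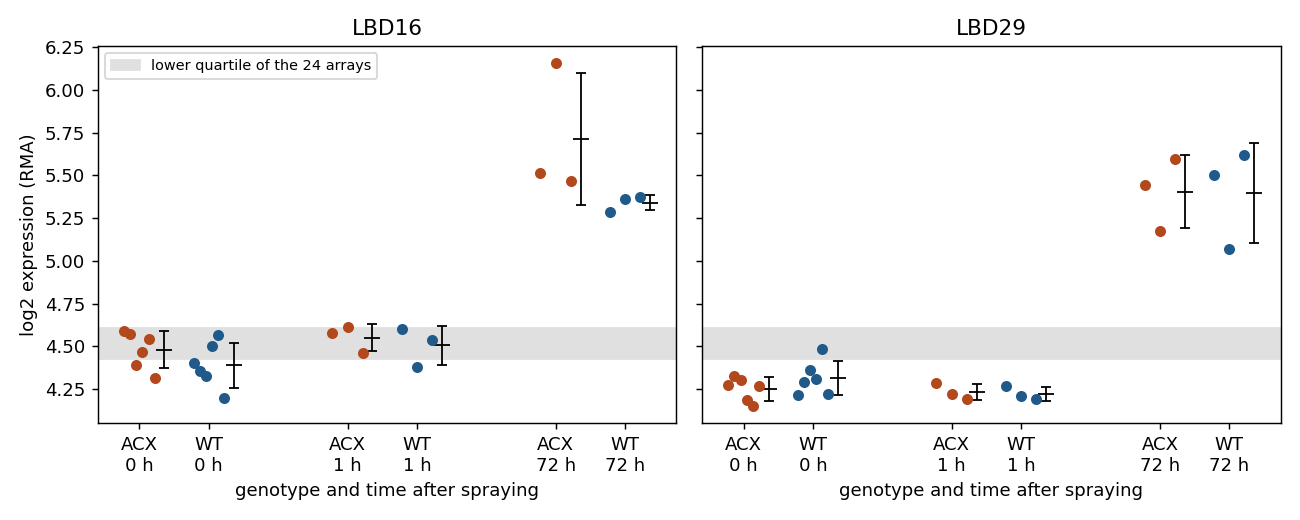
Log2 expression (RMA) of LBD16 (left) and LBD29 (right) on each of the 24 arrays (points), by genotype and time after spraying, with the mean and SD of each group drawn beside it; the grey band spans the lower quartile of all probe sets over the arrays, 4.42 to 4.61. The 0 h and 1 h arrays of both genes lie in or below that band, except LBD16 in ACX 1 h replicate 2 at its upper edge (4.61), and all 72 h arrays lie above it, at 5.07 or more, with a single ACX array of LBD16 at 6.16.

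At 0 h and 1 h both probe sets sat in the dim part of the array. Within the probe sets of each array, LBD16 lay at percentiles 16.9 to 26.2 in ACX 0 h leaves and 14.6 to 26.9 in WT 0 h leaves, and LBD29 at 11.3 to 19.6 in ACX 0 h leaves and 14.1 to 24.7 in WT 0 h leaves. At 72 h LBD16 reached percentiles 42.4 to 50.1 in ACX and 40.1 to 40.9 in WT, and LBD29 reached 38.3 to 44.1 in ACX and 36.7 to 43.9 in WT. Even at 72 h both therefore stayed at or below the middle of the array. No detection calls were used here, so whether the 0 h and 1 h levels exceeded background was not tested. RMA, the authors' normalization, usually compresses changes at the dim end, which was not measured here.

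The 1 h comparison asks whether either gene was among the early responders in leaves. LBD16 averaged 4.55 ± 0.08 in ACX 1 h leaves (SD, n = 3) and 4.48 ± 0.11 in ACX 0 h leaves (SD, n = 6), a log2 change of 0.07 (95% interval -0.17 to 0.31; limma adjusted p = 0.755). In WT it averaged 4.51 ± 0.12 at 1 h and 4.39 ± 0.13 at 0 h, a change of 0.12 (interval -0.12 to 0.36; limma adjusted p = 0.531). LBD29 changed by -0.02 in ACX (interval -0.23 to 0.19; limma adjusted p = 0.928) and by -0.09 in WT (interval -0.30 to 0.12; limma adjusted p = 0.586). None of the 4 tests passed the threshold of adjusted p = 0.05, at a time when 23.6% of all probe sets passed it in ACX and 26.7% in WT. The highest upper end of these intervals was 0.36 for LBD16 and 0.19 for LBD29 on the log2 scale.

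The 72 h comparison asks whether the genes responded later. LBD16 averaged 5.71 ± 0.39 in ACX 72 h leaves, 1.23 above the ACX 0 h mean (interval 0.99 to 1.47; 2.35-fold; limma adjusted p = 7.58e-09). In WT it averaged 5.34 ± 0.04 at 72 h, 0.95 above the WT 0 h mean (interval 0.71 to 1.19; 1.93-fold; limma adjusted p = 4.16e-07). LBD29 averaged 5.41 ± 0.21 in ACX 72 h leaves against 4.25 ± 0.07 at 0 h, a change of 1.15 (interval 0.95 to 1.36; 2.23-fold; limma adjusted p = 2.19e-09). In WT it averaged 5.40 ± 0.29 at 72 h against 4.31 ± 0.10 at 0 h, a change of 1.08 (interval 0.87 to 1.29; 2.12-fold; limma adjusted p = 6.27e-09).

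Both genes thus rose at 72 h in both genotypes, where 26.3% of all probe sets rose in ACX, 26.4% in WT and 21.3% in both, so a rise was common at this time. The rises of the pair were larger than most: 8.05% of probe sets had a larger change than LBD16 and 8.89% than LBD29 in ACX, and in WT these shares were 11.7% for LBD16 and 9.73% for LBD29. Calls were split nearly evenly between higher and lower, with 27% lower in either genotype. Centring each array on its median lowered the median change of all probe sets to -0.20 in ACX and -0.21 in WT, where it was -0.06 in both as deposited, and turned the split to 22% higher and 44% lower in ACX and 21.8% higher and 46.3% lower in WT. LBD16 and LBD29 still rose at 72 h in both genotypes under that scaling.

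An exact two-sided permutation test over the arrays of each gene alone gave p = 0.0238 for the 4 comparisons at 72 h, the smallest that 3 against 6 arrays allow, and 0.0595 after adjustment over the 10 such tests made. At 1 h the exact permutation p values lay between 0.119 and 0.690.

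Both genes also rose when 72 h was set against 1 h leaves. At 72 h against 1 h LBD16 was higher by 1.16 in ACX (limma adjusted p = 2.80e-07) and by 0.83 in WT (limma adjusted p = 2.32e-05). LBD29 was higher by 1.17 in ACX (limma adjusted p = 2.83e-08) and by 1.17 in WT (limma adjusted p = 2.88e-08). Between these times 23.6% of all probe sets rose in ACX and 25.2% in WT. No array was taken between 1 h and 72 h, so when within this interval the genes rose was not measured.

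**Figure D2:**
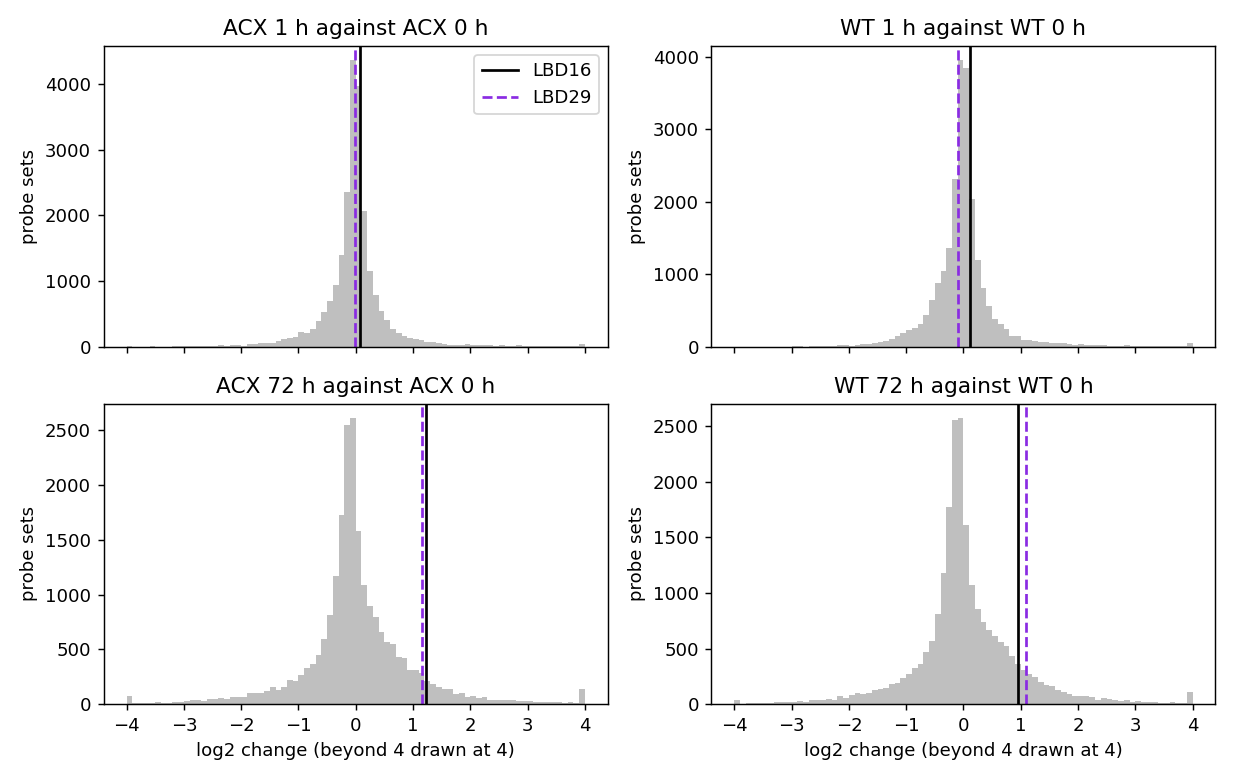
Number of probe sets by log2 change against 0 h (bins, changes beyond 4 drawn at 4), in ACX (left) and WT (right) at 1 h (top) and 72 h (bottom), with the changes of LBD16 (solid line) and LBD29 (dashed line). At 1 h both lines stand in the central peak, between -0.09 and 0.12. At 72 h they stand between 0.95 and 1.23, in the upper shoulder of a wider distribution.

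The genotype comparison asks whether either gene differed in the acx1-2 line. The annotation named no probe set for ACX1 itself, so the disrupted gene could not be used to check the labels. At 0 h LBD16 differed by 0.09 between ACX and WT (interval -0.11 to 0.29; limma adjusted p = 0.694) and LBD29 by -0.06 (interval -0.23 to 0.11; limma adjusted p = 0.777). At 1 h the differences were 0.04 for LBD16 and 0.01 for LBD29, each with a limma adjusted p of 1.00. LBD29 differed by 0.01 at 72 h (interval -0.23 to 0.25; limma adjusted p = 0.995), and its 72 h arrays overlapped between genotypes. The share of all probe sets called between genotypes was 7.35% at 0 h, 0.0352% at 1 h and 2.79% at 72 h.

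LBD16 at 72 h was the one genotype comparison in which the arrays did not overlap, with 5.47 to 6.16 in ACX and 5.29 to 5.37 in WT. The difference of 0.37 had an interval of 0.09 to 0.65 and an unadjusted p of 0.0110 from limma, and it missed the threshold after adjustment over all probe sets (limma adjusted p = 0.167). Without ACX 72 h replicate 2, left out after it was seen to hold the highest LBD16 value, the difference was 0.15. The change at 72 h was 0.28 larger in ACX than in WT for LBD16 (interval -0.06 to 0.62; limma adjusted p = 0.397), or 0.06 larger without ACX 72 h replicate 2 (limma adjusted p = 0.914), and 0.07 larger for LBD29 (interval -0.22 to 0.37; limma adjusted p = 0.891), and 5.99% of all probe sets passed this test. The same differences at 1 h were -0.05 for LBD16 and 0.07 for LBD29, each with a limma adjusted p of 1.00, and 0.145% of probe sets passed.

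Ordered by group mean, LBD16 was highest in ACX 72 h leaves, followed by WT 72 h, ACX 1 h, WT 1 h, ACX 0 h and WT 0 h leaves. LBD29 was highest in ACX 72 h and WT 72 h leaves, which differed by 0.01, followed by WT 0 h, ACX 0 h, ACX 1 h and WT 1 h leaves. Every 72 h array stood above every array of the other groups, and no other step between neighbours that was tested passed the threshold. The 4 groups at 0 h and 1 h spanned 4.39 to 4.55 for LBD16 and 4.22 to 4.31 for LBD29.

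Of 41 LBD family genes listed, the probe annotation named these 2, and both rose at 72 h and neither passed at 1 h. This restates the results above and is no result about the family. Of all probe sets, 21.3% rose at 72 h in both genotypes, and 23.6% passed at 1 h in ACX and 26.7% in WT. The other members were not analysed here. LBD16 lies next to LBD17 (ASL15) in the TAIR10.1 RefSeq gene order, a neighbour that was not named by the annotation either.

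All 5 early response genes that the annotation named rose at 1 h and at 72 h in both genotypes, with a median change of 3.31 in ACX and 3.25 in WT at 1 h and of 3.93 in ACX and 3.83 in WT at 72 h, where the median over all probe sets was -0.02 at 1 h and -0.06 at 72 h. At 1 h 10.9% of all probe sets rose in ACX and 11% in WT, while 12.7% fell in ACX and 15.6% in WT. By 72 h 26.3% of all probe sets rose in ACX and 26.4% in WT. The 1 h call of GH3.1, 1 of the 5 genes, was lost when some single arrays were left out, as given below. GH3.3, which encodes an auxin-inactivating conjugation enzyme, averaged 5.65 ± 0.78, 13.43 ± 0.22 and 13.97 ± 0.22 at 0 h, 1 h and 72 h in ACX (SD, n = 6, 3 and 3). It averaged 4.95 ± 0.12, 13.36 ± 0.15 and 13.45 ± 0.45 at these times in WT. The Aux/IAA repressor gene IAA29 was higher at 1 h by 4.41 in ACX and 4.36 in WT, and IAA30 by 3.31 in ACX and 2.68 in WT. So leaves in which LBD16 and LBD29 did not pass the test at 1 h already held raised transcripts of other auxin-responsive genes.

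Some auxin genes followed the late timing. GH3.17, another enzyme gene of this kind, changed by 0.17 in ACX and 0.01 in WT at 1 h, without passing the test, and rose by 3.37 in ACX (limma adjusted p = 3.07e-17) and 3.53 in WT (limma adjusted p = 1.58e-17) at 72 h. The repressor gene IAA20 changed by 0.02 in ACX and 0.05 in WT at 1 h, also without passing, and rose by 0.99 in ACX and 0.53 in WT at 72 h. GH3.1 passed at both times and was much higher at 72 h, by 3.72 in ACX and 3.06 in WT, where it was higher by 0.79 in ACX and 0.62 in WT at 1 h. In ACX the 1 h call of GH3.1 was lost when replicate 1 or 2 of the 1 h arrays was left out (limma adjusted p = 0.0534 and 0.0696). In WT it was lost without replicate 2 or 3 at 1 h, and without any 1 of replicates 4 to 6 at 0 h (limma adjusted p = 0.0561 to 0.194).

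**Figure D3:**
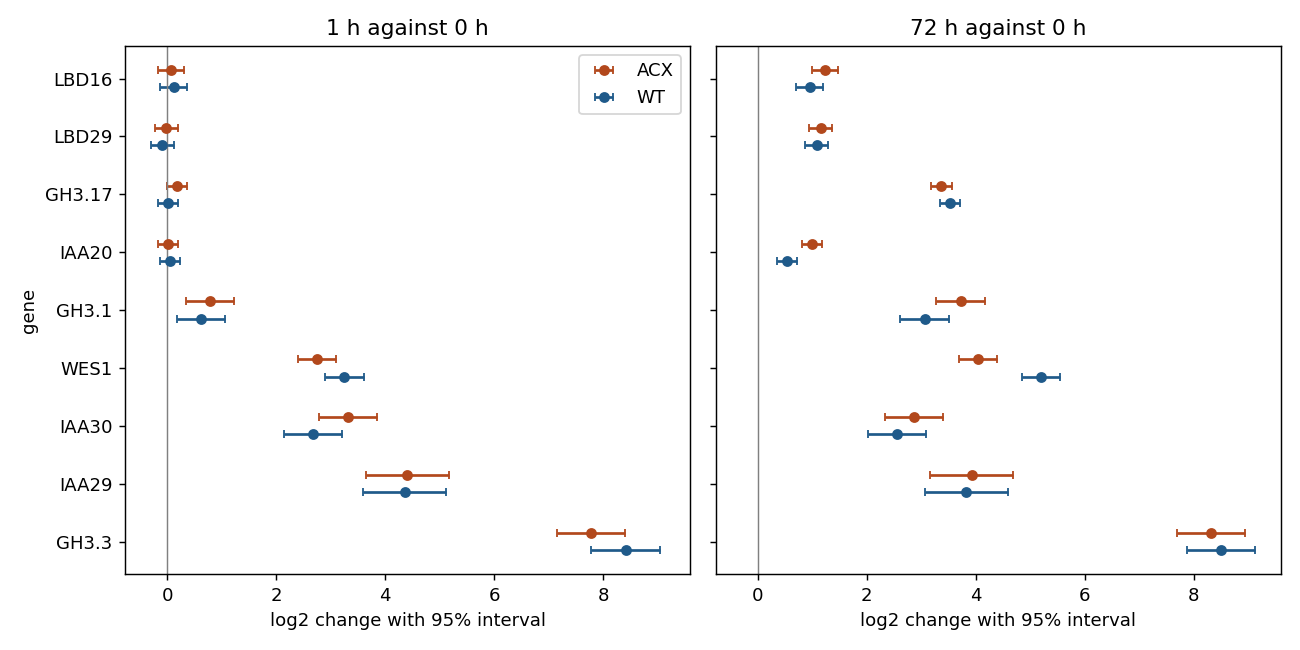
Log2 change against 0 h with its 95% interval from limma for LBD16, LBD29 and 7 auxin-responsive genes at 1 h (left) and 72 h (right), in ACX and WT. At 1 h the intervals of LBD16, LBD29, GH3.17 and IAA20 include 0 while GH3.3 stands at 7.78 in ACX and 8.41 in WT. At 72 h all 9 genes drawn lie to the right of 0. The 7 genes are a choice from 5 annotated GH3 and 7 annotated Aux/IAA genes. At 72 h 1 gene of each list, not drawn, fell in each genotype.

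Of the GH3 genes, 3 of 5 annotated rose at 1 h in both genotypes and 1, GH3.9, fell in WT by 0.55 (limma adjusted p = 0.00194), and 4 rose and 1 fell at 72 h in both. Of all probe sets, 10.9% rose in ACX and 11% in WT at 1 h, and 12.7% fell in ACX and 15.6% in WT. At 72 h 26.3% of all probe sets rose in ACX and 26.4% in WT, and 27% fell in each. Of 7 annotated Aux/IAA genes, 2 rose at 1 h in both genotypes, while at 72 h 3 rose and 1 fell in ACX and 4 rose and 1 fell in WT, the fall in WT being lost without WT 72 h replicate 3. WES1 (GH3.5), a further auxin-conjugating enzyme, rose at 72 h by 4.05 in ACX and 5.20 in WT. GH3.9, a GH3 gene of this family, fell at 72 h by 0.55 in ACX and by 0.83 in WT. The GH3 and Aux/IAA genes that rose at 1 h were GH3.1, GH3.3, WES1, IAA29 and IAA30. They are the same genes as the 5 early response genes above, so these counts are no separate evidence.

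Of 26 genes listed for acting with LBD16 and LBD29 in lateral root and callus formation, 2 were named by the annotation, and neither passed as higher at 72 h in either genotype. PUCHI, an AP2/ERF factor of early lateral root primordia, changed at 72 h by 0.14 in ACX (limma adjusted p = 0.200) and by -0.11 in WT (limma adjusted p = 0.329), neither of which passed. Under quantile normalization the ACX value was 0.24 and passed (limma adjusted p = 0.0358), and under array centring the WT value was -0.26 and passed (limma adjusted p = 0.0237). BZIP59, which partners LBD16 in callus formation, fell at 72 h by 0.34 in ACX (limma adjusted p = 0.00553) and changed by -0.03 in WT (limma adjusted p = 0.798). The ACX call of BZIP59 was lost without ACX 72 h replicate 1, at -0.25 (limma adjusted p = 0.0621).

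In a wider list of 9 annotated root and callus development genes, assembled after the annotation and some values had been seen, 2 rose and 1 fell at 72 h in ACX and 3 rose in WT, with medians of -0.08 in ACX and -0.03 in WT against -0.06 over all probe sets. The rises lay near the share of all probe sets that rose (26.3% in ACX and 26.4% in WT), and 27% of all probe sets fell in each. Under array centring 3 of the 9 genes fell in each genotype. UPB1 (UPBEAT1), a bHLH factor known in roots for setting where cells stop dividing, rose by 5.89 in ACX (limma adjusted p = 7.00e-16) and by 6.20 in WT (limma adjusted p = 4.93e-16). LHW, a bHLH factor that promotes vascular cell divisions in roots, rose by 0.73 in both. AGL42, a MADS-box gene known from the root quiescent centre, changed by 0.05 in ACX (limma adjusted p = 0.742, and -0.08 under array centring) and rose by 0.89 in WT (limma adjusted p = 4.44e-06).

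Of 13 cell division genes, likewise chosen after the annotation was seen, 3 rose and 4 fell at 72 h in each genotype, with a median of 0.11 in ACX and -0.06 in WT against -0.06 over all probe sets. These counts lay near the share of all probe sets that rose (26.3% in ACX and 26.4% in WT) and fell (27% in each). Array centring gave 2 higher and 5 lower in ACX and 3 higher and 5 lower in WT. The mitotic kinase gene AUR2 rose by 0.85 in ACX and 0.97 in WT. FBL17, an F-box gene that acts on inhibitors of cell cycle kinases, fell by 1.27 in ACX and by 1.06 in WT, and the replication gene POLA3 fell by 1.04 in ACX and by 1.70 in WT. Among 10 alpha-expansin genes, which loosen cell walls, 3 rose and 5 fell in ACX and 2 rose and 4 fell in WT, with EXPA4 higher by 2.72 in ACX and 2.40 in WT. The share that rose lay near that of all probe sets. Without WT 72 h replicate 3 none of the expansins passed as lower in WT.

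Markers of leaf and root moved beside the LBD pair at 72 h. The lists of photosynthesis and root-expressed genes were likewise added after the annotation was seen. Of the 8 photosynthesis genes 7 fell in each genotype, where 27% of all probe sets fell in each. The median change of the 8 genes was -0.92 in ACX and -0.71 in WT. Their mean level lay at 12.20 to 12.39 in ACX 72 h and 12.37 to 12.53 in WT 72 h arrays. LHCB4.3, a light-harvesting protein gene, fell by 2.77 in ACX and by 2.91 in WT. None of the 3 root-expressed genes rose, where 26.3% of all probe sets rose in ACX and 26.4% in WT. EXPA7 and EXPA18 fell in ACX and EXPA18 in WT, and the median change over the 3 genes was -0.52 in ACX and -0.32 in WT. The call of EXPA18 was lost without ACX 72 h replicate 1 or 2 in ACX, and without WT 72 h replicate 1 or 3 in WT. The mean level of the 3 genes lay at 5.05 to 5.45 in ACX 72 h and 4.92 to 5.59 in WT 72 h arrays. FMA, which marks guard cell formation and was the 1 named epidermal marker of 3, lay at 5.97 to 6.18 in ACX 72 h against 6.82 to 7.09 in ACX 0 h leaves, and at 5.94 to 6.77 in WT 72 h against 6.63 to 7.16 in WT 0 h leaves. The part of these shifts in the LBD result was not tested. In such bulk leaf samples, fewer cells of a type and less RNA per cell cannot be told apart.

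LBD16 and LBD29 differed from each other in which 72 h arrays were high. LBD16 was highest in ACX replicate 2 and lower in all WT arrays than in any ACX array, whereas LBD29 was highest in WT replicate 3 and lowest in replicate 2 of both genotypes. Their Pearson correlation over the 24 arrays was 0.881, and 721 of the 22746 tested probe sets followed LBD16 more closely than LBD29 did. For LBD29 that number was 1325. These correlations rest mostly on the 72 h arrays standing apart from the rest and are given as a description.

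The 5 annotated genes closest to LBD16 were AT1G68360 (r = 0.965), AT1G53070 (r = 0.963), AT1G64405 (r = 0.961), GH9B13 (r = 0.957) and GH3.1 (r = 0.956). GH9B13 belongs to the glycosyl hydrolase family 9 of cell wall enzymes. Among the 1579 probe sets whose gene has a symbol other than its locus code, a narrower pool set up after the first was seen, the purple acid phosphatase gene PAP20 (r = 0.950), the brassinosteroid receptor gene BRL1 (r = 0.945) and IAA20 (r = 0.944) came next. Of these 8 genes, 7 were highest in ACX 72 h replicate 2, the one in which LBD16 peaked. For GH9B13 the 72 h arrays read 6.84, 7.96 and 7.62 in ACX and 6.96, 7.06 and 6.26 in WT. For GH3.1 they read 8.04, 9.20 and 8.26 in ACX and 7.88, 7.58 and 8.03 in WT. Over the 23 arrays left without ACX 72 h replicate 2 the correlations of the 8 genes with LBD16 lay between 0.919 and 0.963. The 8 genes were chosen for likeness to LBD16 over the same arrays. Neither the shared peak nor these correlations are therefore separate evidence.

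The 5 annotated genes closest to LBD29 were AT1G02305 (r = 0.981), AT5G04750 (r = 0.977), AT5G23750 (r = 0.977), AT1G62770 (r = 0.976) and AT1G55760 (r = 0.976). In the narrower pool they were the copper amine oxidase gene CuAO1 (r = 0.974), the aspartic protease gene APA1 (r = 0.972), TRM18 (r = 0.971), PR-1-LIKE (r = 0.970) and AtLEA4-1 (r = 0.969). None of these 10 genes was highest in ACX 72 h replicate 2, and 6 were lowest in WT 72 h replicate 2, as LBD29 was. These genes were chosen for this likeness, so their shared pattern is no separate evidence.

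**Figure D4:**
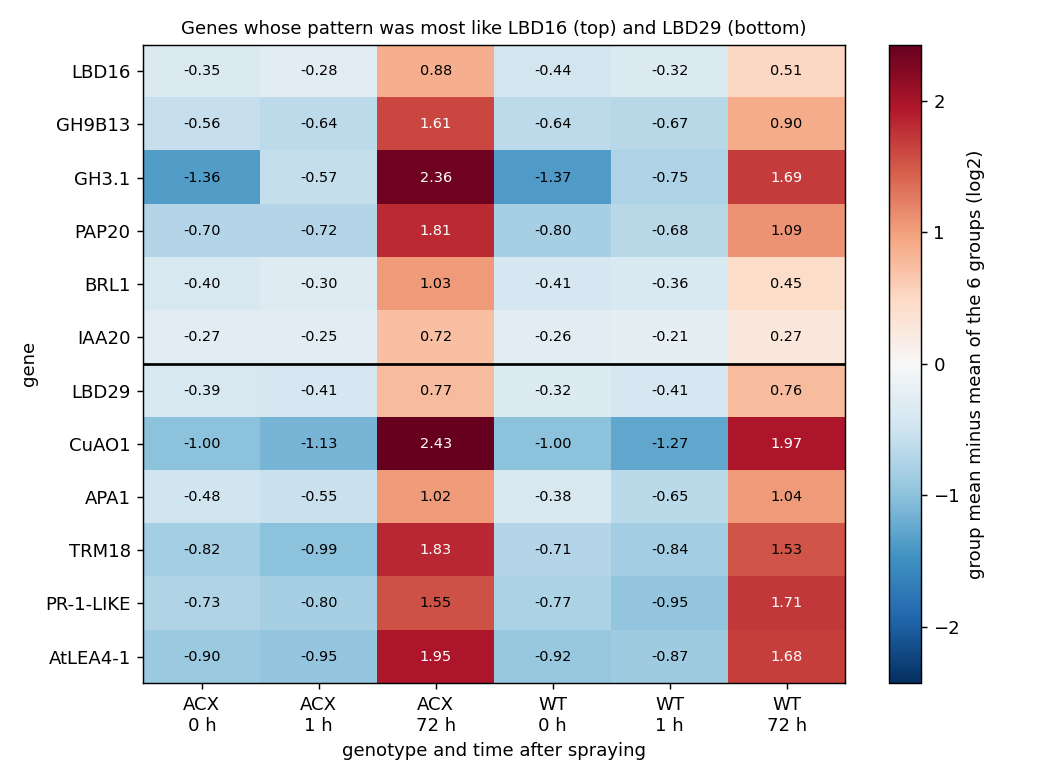
Group means of LBD16 and LBD29 and of the 5 genes with a symbol closest to each, as the difference from the gene's mean over the 6 groups (log2 scale, colour and number in each cell), by genotype and time. All 12 genes are highest at 72 h. The 5 genes listed with LBD16 stand higher in ACX than in WT at 72 h, as LBD16 does (0.88 in ACX and 0.51 in WT). They were chosen for likeness to LBD16, so the shared direction is no separate evidence. The LBD16 difference did not pass the test (limma adjusted p = 0.167) and was smaller without ACX 72 h replicate 2. LBD29 stands at 0.77 in ACX and 0.76 in WT, and of the genes listed with it CuAO1, TRM18 and AtLEA4-1 are higher in ACX too.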

How the data were processed

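The 24 ATH1 arrays came as log2 expression per probe set, and per the submitters' processing notes the authors used RMA for these deposited values and limma for testing. The sources used here give neither tool's version or settings, and do not say whether the arrays were normalized in one run. In its usual form RMA subtracts background, equalises the arrays' distributions and combines the probes of a set, which compresses low values and hides shifts common to most genes. The medians of the deposited arrays lay between 5.95 and 6.17, so their distributions were not identical. Here 64 control probe sets of 22810 were left out, and limma 3.58.1 in R 4.3.3 was fitted with 1 mean per group over all 24 arrays (18 residual and 3.23 prior degrees of freedom). P-values were adjusted by Benjamini-Hochberg over 22746 probe sets within each of 11 comparisons, at 0.05. Exact permutation tests were run in scipy 1.17.1, and the fits were tested on simulated data. The number of arrays limits the precision.

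Probe sets were named by GEO's platform annotation of 2016: 13513 have 1 gene, 503 several, and 8730 are unnamed here. RefSeq's TAIR10.1 table supplied current names and neighbours. The members and all gene lists were chosen with earlier results of these data known. Named genes are the members and up to 4 per list with the smallest adjusted p in WT at 72 h and at 1 h. The 5 closest to each member by Pearson correlation are named too. Added later were the lists called annotated and the pool of genes with symbols. Those lists include the 9 root and callus development genes and the cell division, expansin, photosynthesis and root-expressed genes. Groups were taken from the labels, no 2 arrays were identical, and no batch is given. The alternatives were scaling, filters, prior, array weights, arrays used and a replicate block. Replicate numbers were not used as pairs in the main fit, since in no comparison did every same-numbered pair deviate together at a correlation above 0.1. With so few arrays per group this rule cannot exclude pairing.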

Additional observations from a re-analysis of the deposited data

Results flagged for a closer look

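No value of LBD16 or LBD29 stood out within its group of 6 arrays at 0 h, and neither gene differed between genotypes in its change by the interaction test. Among the other genes named, 4 of 114 groups of 6 arrays held an array far from the rest, where chance gives about 1 in 20, and all were WT 0 h replicate 3. IAA29 read 7.47 there against 5.34 to 5.89 in the other WT 0 h arrays, and BRL1 4.38 against 4.00 to 4.09. AT5G23750 read 8.03 against 7.42 to 7.59, and LHCB4.3 11.15 against 11.52 to 11.62. LBD16 at 4.33 and LBD29 at 4.36 lay inside the range of the other arrays.

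The change at 72 h differed between ACX and WT, by limma's interaction test at adjusted p under 0.05, for 7 of the 59 genes named. Of all probe sets, 5.99% passed this test. WES1 had a difference of -1.16, with a 0 h level that was 1.27 higher in ACX than in WT. AGL42 had -0.84. IAA20, an Aux/IAA gene that is also among the genes chosen for likeness to LBD16, had 0.46. The other 4 were chosen only as genes that follow LBD16, with 0.85 for AT1G53070, 1.20 for AT1G64405, 0.62 for PAP20 and 0.56 for BRL1. All 4, and IAA20, were higher in ACX, the direction that LBD16 also had without passing (0.28, or 0.06 without ACX 72 h replicate 2). Choice by likeness to LBD16 favours that direction. Without ACX 72 h replicate 2 AT1G53070 fell short at 0.58 (limma adjusted p = 0.133), as did IAA20 at 0.38 (limma adjusted p = 0.105).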

How the results depend on the processing

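Across 22 results for LBD16 and LBD29 and 769 alternative values, no call was lost or gained when the exact permutation tests were counted by their unadjusted p. After adjustment over the 10 permutation tests made, those at 72 h against 0 h stood at 0.0595 and missed the threshold. The 72 h changes ranged from 1.01 to 1.35 (ACX) and 0.79 to 0.98 (WT) for LBD16, and from 1.02 to 1.27 (ACX) and 0.93 to 1.25 (WT) for LBD29. With a replicate block, which changed no call of these 2 genes, the 72 h changes were 1.23 (ACX) and 0.95 (WT) for LBD16 and 1.14 (ACX) and 1.07 (WT) for LBD29. A filter on the lowest 25% of probe sets removed LBD29 and one on the lowest 50% removed both, so no value exists there.

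The sign of 8 uncalled differences of the pair turned in 16 alternative values, none of which passed, and the cause was not tested. With 0 h replicates 1 to 3 only, LBD29 differed between ACX and WT by 0.013 at 0 h, by -0.0051 in its 1 h change and by -0.0044 in its 72 h change. With 0 h replicates 4 to 6 only, the ACX 1 h change of LBD29 was 0.031 and the ACX minus WT difference of the LBD16 1 h change was 0.022; array centring gave 0.016 for the ACX 1 h change of LBD29. Leaving out 1 array at a time gave -0.045 to 0.00076 for that change. For LBD16 it gave -0.020 to 0.092 between ACX and WT at 1 h and -0.11 to 0.00096 for their difference in the 1 h change. For LBD29 it gave -0.018 to 0.031 between ACX and WT at 1 h, -0.16 to 0.12 at 72 h and -0.094 to 0.19 for their difference in the 72 h change.

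Of 136 values of other named genes, 29 lost their call under at least 1 alternative and 2 uncalled ones, both of PUCHI at 72 h, gained one. Uncalled values that turned sign were AGL42 in ACX at 72 h (-0.0054 with 0 h replicates 4 to 6, -0.083 with array centring), GH3.17 in WT at 1 h (-0.019 with 0 h replicates 1 to 3) and PUCHI in WT at 1 h (-0.0013 with those, -0.0093 with quantile normalization). With 1 array left out, BZIP59 in WT at 72 h ranged from -0.15 to 0.074, GH3.17 in WT at 1 h from -0.12 to 0.090, IAA20 in ACX at 1 h from -0.033 to 0.047 and PUCHI in WT at 1 h from -0.031 to 0.041. The 1 h call of GH3.1 was also lost in WT with the replicate block (limma adjusted p = 0.0765) and with 0 h replicates 1 to 3 only (0.232), and in ACX with 0 h replicates 4 to 6 only (0.120). The genotype differences of the 72 h change lost their call in 10 alternatives for IAA20, 11 for AT1G53070, 4 for PAP20 and 1 for AGL42.

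Counts over all probe sets, used only as a background, moved most for genotype comparisons: 635 between ACX and WT at 72 h became 2 when only those groups were fitted and 1357 with array weights, and 8 at 1 h ranged from 3 to 45. The 1671 at 0 h ranged from 825 to 4184, the 1362 for the 72 h interaction from 621 to 2914 and the 33 for the 1 h interaction from 6 to 1122. Against 0 h they ranged from 6634 to 15019 (ACX) and 6682 to 15469 (WT) at 72 h, and from 2766 to 7205 (ACX) and 3183 to 8576 (WT) at 1 h, the lowest with 1 probe set per gene, where fewer were tested. No detection calls limit what the dim 0 h and 1 h values can show.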
